A study of Drosophila melanogaster with 15 samples.

Results

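The 7 genes *CG6271*, *CG6277*, *CG6283*, *CG6295*, *CG6296*, *CG17191* and *CG17192* lie side by side on chromosome arm 3R of *Drosophila melanogaster* and encode neutral, pancreatic-type lipases. They were chosen by name as a set of neighbouring genes, not by a cut on their measured levels, but with earlier results of these data known. They are 7 of the 12133 entries in the deposited expression table. Midgut mRNA was sequenced from larvae of *w1118*, a common control strain with white eyes, in early L2 (2 days after egg laying), late L2 (3 days) and early L3 (4 days). All larvae were kept on a yeast-only diet at 25 °C with 12 h of light and 12 h of dark, and the sex was not determined. There were 5 biological replicates per stage, each a pool of 60 (early L2), 30 (late L2) or 10 midguts (early L3). Age, stage and the number of pooled midguts changed together, so their effects cannot be told apart. The stages are compared with each other.

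Dietary fat arrives in the midgut as triacylglycerol, which is too large to be absorbed. Lipases secreted by enterocytes, the absorptive cells of the midgut, split it into fatty acids and monoacylglycerol, and these are taken up, re-esterified and exported as lipoprotein particles. Neutral lipases belong to the same fold family as the mammalian pancreatic lipase and work near neutral pH, while the acid lipases form a separate family related to gastric and lysosomal lipases. Neutral lipase genes of insects often stand in tandem arrays that arose by duplication. The members described here carry only their annotation numbers, so no separate role can be given for each.

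In the Ensembl 115 annotation of BDGP6.54, the cluster runs from position 27003236 to 27026109 on chromosome arm 3R, a span of 22874 bp. All 7 genes are protein-coding, lie on the minus strand and have 1 annotated transcript each. From the lower to the higher coordinate, which is against the direction of transcription, the order is *CG6296*, *CG6295*, *CG17192*, *CG17191*, *CG6283*, *CG6277* and *CG6271*. *CG6296* (FBgn0039470, 27003236 to 27005469) has 3 exons and 2127 exonic bp, the longest of the set. *CG6295* (FBgn0039471, 27005899 to 27007055) follows after a gap of 429 bp. The next gap, of 10124 bp, is mostly taken by a roo transposable element on the plus strand, and it separates these 2 genes from the other 5.

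Beyond the transposable element, *CG17192* (FBgn0039472) spans 27017180 to 27018287 and *CG17191* (FBgn0039473) spans 27018608 to 27019751. *CG6283* (FBgn0039474) lies at 27020238 to 27021378 and *CG6277* (FBgn0039475) at 27022071 to 27023217. *CG6271* (FBgn0039476), at 27024968 to 27026109, closes the array. The gaps between these 5 genes are 320, 486, 692 and 1750 bp, and the 6 genes other than *CG6296* have between 1052 and 1091 exonic bp. In the text, the *CG6296* end and the *CG6271* end name the ends of this array.

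Expression is given in CPM, reads of a gene scaled to a common library total. Library totals ranged from 23981806 to 33902298 reads. A transcript is said to rise or fall, or to have been called, when a limma fit on log2(CPM + 0.5) over all 9787 tested entries gave a Benjamini-Hochberg adjusted p under 0.05 and an absolute log2 fold change of 0.5 or more. On this scale the change of transcripts at low levels is understated. Values are means ± SD over n = 5 replicates. On the first principal component, late L2 replicate 4 was at -5.63, while the other late L2 libraries were between -24.58 and -16.62. Early L3 replicate 1 was at 31.61 and the other early L3 libraries were between 45.12 and 59.4. Early L2 replicates 1 to 5 were at -39.91, -36.7, -33.04, -24.84 and -20.77, rising with the replicate number. Replicate 5 of early L2 lay inside the late L2 range, so the L2 stages overlapped on this component.

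The midgut markers *mex1*, *Myo31DF* and *GATAe* were present in every library, with *Myo31DF*, an enterocyte myosin, between 367 and 443 CPM throughout. Of the 7 markers on this list, 2 fell and 0 rose between early L2 and early L3. The listed *betaTry* had 259 to 341 CPM at first, 207 to 289 at the late L2 stage and 274 to 428 by early L3. In the same order, *mex1* had 251 to 303, 305 to 359 and 270 to 337 CPM. By contrast, *alphaTry* and *Mal-A1* were lower by early L3. *alphaTry*, a trypsin gene, had 465 to 660 CPM in early L2 and 68.0 to 116 in early L3, and *Mal-A1*, a maltase gene, had 1500 to 2020 and 939 to 1230 CPM. The summed level of 7 midgut markers was 3100 to 3930 CPM at first (early L2), 2210 to 2490 in late L2 and 2300 to 2540 by early L3. Transcripts of larval serum proteins, made by the fat body, had a higher sum in late L2 and early L3 than in early L2. All 4 fat body markers with values are of this kind, and the listed *Fbp1*, *Fbp2* and *Yp1* had none. Their sum therefore cannot tell more fat body tissue from a change of these genes with stage. The sum of 4 fat body markers was 0.292 to 1.65 CPM over the early L2 libraries, 2.76 to 247 in late L2 and 45.0 to 273 by early L3, and *Lsp1alpha* and *Lsp2* were at 0 in early L2. Late L2 replicate 4 had the 247 CPM, and the other 4 late L2 libraries had 21 at most. Visceral muscle markers summed to 3430 to 5910 CPM over all libraries, tracheal and cuticle markers to 31.2 to 154, and Malpighian tubule markers to at most 1.92. The part of these other tissues in the changes of the lipase genes was not tested. In bulk tissue, fewer cells of a type and less RNA per cell cannot be told apart.

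The first question was when each lipase gene changed. Of the 7 members, 3 rose from early to late L2 (*CG6283*, *CG6277* and *CG6271*), against 3.38% of all tested entries called higher in this comparison. From late L2 to early L3, 5 rose, these 3 together with *CG6295* and *CG17191*, against 6.45% of all entries. No member fell in either comparison, where 6.51% and 18.7% of all entries were called lower. The same 5 were called between early L2 and early L3, where 9.86% of all entries were called higher and 24.3% lower. This comparison shares its libraries with the other 2. The 3 members that rose in both successive steps compare with 1.4% of all entries, 137 of 9787. Ranges of the later stage lay wholly above those of the earlier one for 2 members within L2, 6 into early L3 and 6 between early L2 and early L3. Among all entries this was so for 9.73%, 11.7% and 16.2%.

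**Figure D1:**
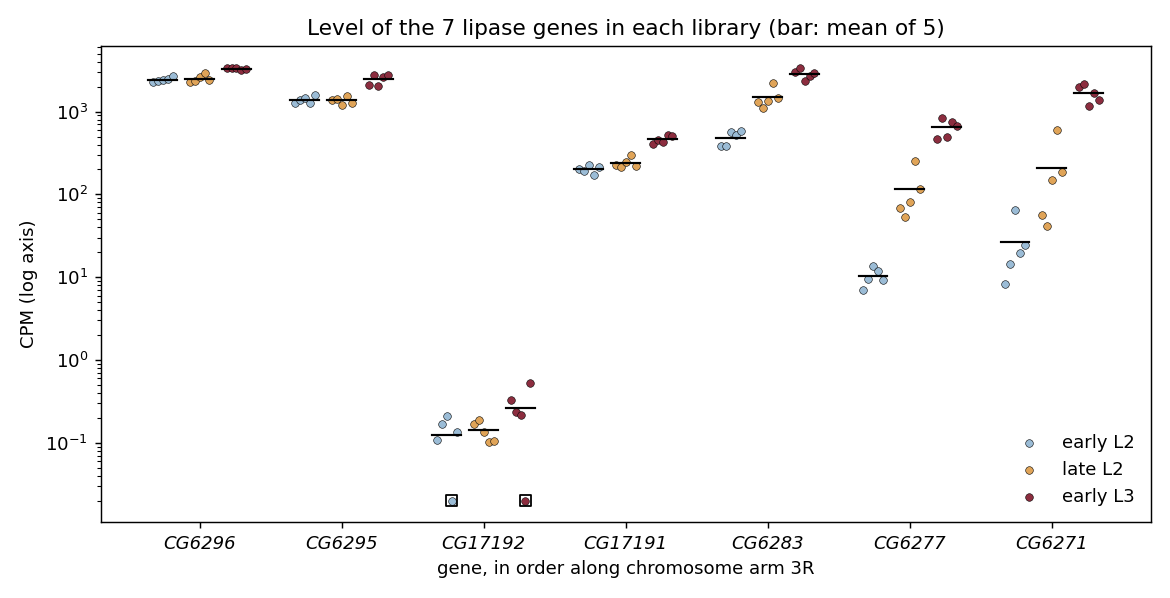
Level of each lipase gene in CPM (log axis) in the 15 libraries, coloured by stage, with the mean of 5 replicates as a bar and the genes in their order on the chromosome arm. The 2 points of *CG17192* at 0 reads are drawn at the bottom of the axis inside open squares. Levels at the *CG6296* end lie within a narrow band, whereas *CG6277* and *CG6271* climb from 10.3 and 26.6 CPM in early L2 to 647 and 1668 CPM in early L3.

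*CG6277* rose in both steps. Its levels in replicates 1 to 5 of early L2 were 6.98, 9.38, 13.7, 11.9 and 9.32 CPM. In late L2 they were 69.3, 52.9, 80.2, 256 and 117 CPM. In early L3 they were 472, 844, 489, 751 and 678 CPM. The 3 stages did not overlap, and late L2 replicate 4 stood above the other late L2 libraries. The means were 10.3 ± 2.59, 115 ± 82.1 and 647 ± 163 CPM. In limma, the log2 fold change was 3.22 (SE 0.33, adjusted p = 7.77e-06) from early to late L2. It was 2.69 (SE 0.33, limma adjusted p = 6.62e-06) from late L2 to early L3. The mean in early L3 was 63.1 times that in early L2, and *CG6277* moved from rank 5245 to 6493 among 11207 gene entries in early L2 to rank 199 to 382 in early L3, ranked by CPM.

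*CG6271*, at the end of the array, rose in both steps and was uneven between the replicates of both L2 stages. Early L2 gave 8.21, 14.6, 65.7, 19.8 and 24.8 CPM. Late L2 gave 55.7, 41.0, 149, 603 and 186 CPM. Early L3 gave 1961, 2160, 1154, 1686 and 1379 CPM. Early L2 replicate 3 overlapped the 2 lowest late L2 libraries, and all early L3 libraries lay above every L2 library. The means were 26.6 ± 22.7, 207 ± 230 and 1668 ± 411 CPM. In limma, the log2 fold change was 2.62 (SE 0.62, adjusted p = 0.00567) within L2 and 3.63 (SE 0.62, adjusted p = 0.000142) into early L3.

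Single libraries moved the size of these steps for *CG6271*. Without late L2 replicate 4, its mean in late L2 was 108 CPM, and the ratio of means went from 7.78 to 4.05 within L2 and from 8.06 to 15.5 into early L3. Without early L2 replicate 3, its mean in early L2 was 16.8 CPM and the ratio within L2 was 12.3. The ratio of early L3 to early L2 was 62.7 with all libraries and 99.1 without early L2 replicate 3. Both steps stayed past the threshold whichever single library was left out, with limma adjusted p-values of 0.00189 to 0.0164 within L2 and 1.05e-05 to 0.000551 into early L3. Late L2 replicate 4 was also the late L2 library with the highest fat body marker level, 247 CPM. On the first principal component it was, at -5.63, the late L2 library nearest to early L3. Neither the part of fat body RNA nor that of the age of this pool was tested. Without this library and early L3 replicate 1, the count of members called was 3 within L2 and 5 into early L3, as with all libraries.

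*CG6283* also rose in both steps. Its early L2 levels were 385, 388, 565, 516 and 578 CPM. In late L2 they were 1316, 1113, 1331, 2228 and 1464 CPM. In early L3 they were 3016, 3378, 2371, 2696 and 2908 CPM. Each stage lay wholly above the one before, with late L2 replicate 4 closest to early L3. The means were 487 ± 94.4, 1490 ± 431 and 2874 ± 374 CPM, and early L3 was 5.9 times early L2. In limma, the log2 fold change was 1.59 (SE 0.17, adjusted p = 1.06e-05) within L2 and 0.98 (SE 0.17, adjusted p = 0.000152) into early L3. The difference between these steps, -0.62 on the log2 scale, did not pass the test (limma adjusted p = 0.115).

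*CG6295* and *CG17191* were called in the step into L3 and not within L2. *CG6295* had 1273, 1379, 1466, 1279 and 1602 CPM in early L2. It had 1383, 1435, 1209, 1564 and 1283 CPM in late L2. It had 2126, 2735, 2041, 2601 and 2767 CPM in early L3. The L2 stages overlapped almost entirely, and early L3 lay above both. The means were 1400 ± 138, 1375 ± 137 and 2454 ± 345 CPM. The log2 fold change was -0.03 within L2 and 0.83 (SE 0.10, limma adjusted p = 5.14e-06) into early L3.

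*CG17191* was likewise called only in the step into L3. It had 201, 193, 223, 172 and 213 CPM in early L2. It had 226, 216, 244, 297 and 223 CPM in late L2. It had 402, 461, 433, 525 and 507 CPM in early L3. The L2 stages touched, with the lowest late L2 libraries inside the early L2 range, and early L3 was separate. The means were 200.5 ± 19.8, 241 ± 32.7 and 466 ± 50.8 CPM. The log2 fold change of 0.26 within L2 did not pass the test (limma adjusted p = 0.0529), and that into early L3 was 0.95 (SE 0.10, limma adjusted p = 1.09e-06).

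Whether the later step differed from the earlier one was tested within the same limma fit. For *CG6295* the later change exceeded the earlier by 0.86 on the log2 scale (limma adjusted p = 0.00142), and for *CG17191* by 0.69 (limma adjusted p = 0.00457). These 2 of 7 members were called, against 6.5% of all entries called in this direction and 18.4% in the other, where no member was called. The differences of 1.01 for *CG6271* and -0.54 for *CG6277* did not pass (limma adjusted p = 0.497 and 0.499). They depended on single libraries, with a range of 0.18 to 2.11 for *CG6271* when each library was left out in turn, and a value of 0.16 for *CG6277* without late L2 replicate 4. Expressed as a share of the log2 change from early L2 to early L3, *CG6283* had made 62.0% of it by late L2, *CG6277* 54.5%, *CG6271* 41.9% and *CG17191* 21.7%. These shares are a description and were not tested.

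*CG6296* had only a small change into early L3. Early L2 gave 2277, 2364, 2405, 2470 and 2692 CPM. Late L2 gave 2270, 2335, 2601, 2931 and 2391 CPM. Early L3 gave 3355, 3405, 3324, 3186 and 3263 CPM. The L2 stages overlapped, and early L3 lay above both with a small spread. The means were 2442 ± 157, 2505 ± 268 and 3307 ± 85.06 CPM. The log2 fold change into early L3 was 0.41 (SE 0.07, limma adjusted p = 0.000128), below the minimum of 0.5. When the values were scaled by median ratios it was 0.55 and was called. The median log2 fold change of all tested entries in this comparison was -0.11 in CPM and 0.02 after that scaling.

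*CG17192*, between the transposable element and *CG17191*, had almost no reads. It was covered by 3, 4, 7, 0 and 4 reads in early L2. It was covered by 5, 5, 4, 3 and 3 reads in late L2. It was covered by 10, 7, 6, 0 and 18 reads in early L3. No stage stood apart, and the highest level was 0.531 CPM, in early L3 replicate 5, the one library through which it passed the filter on low values. The log2 fold changes were 0.05 and 0.21, and neither passed the test (limma adjusted p = 0.302 for the later step). At these counts a difference between stages was not detectable. Its nearest neighbour *CG17191*, 320 bp away, had between 172 and 525 CPM in the same libraries.

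**Figure D2:**
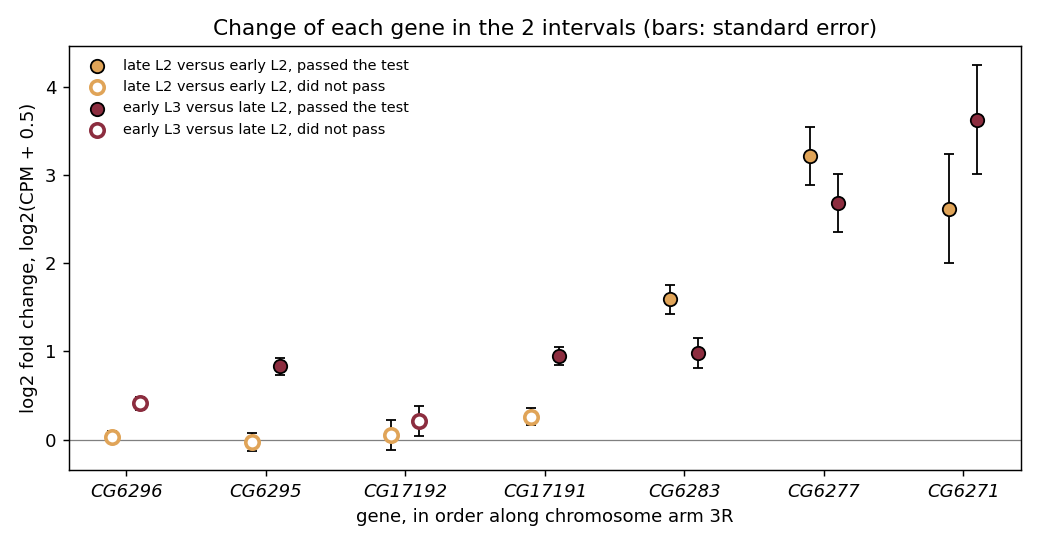
Log2 fold change of each lipase gene on the log2(CPM + 0.5) scale from early to late L2 and from late L2 to early L3, with standard errors of the limma fit and the genes in chromosomal order. Filled points passed the test and open points did not. The 3 genes at the *CG6271* end passed in both steps, with log2 fold changes of 0.98 to 3.63, and the 4 others stayed between -0.03 and 0.26 in the earlier step.

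Position in the array and timing went together as a description. The 3 genes called in both steps are consecutive at the *CG6271* end. *CG6283* and *CG17191* are 486 bp apart and lie on the same strand, yet the first rose within L2 and the second was not called there. The difference between neighbours was tested as the log2 ratio of their levels within each library, over 10 such comparisons chosen after the values were seen. *CG17192* was left out, and *CG17191* was compared with *CG6295*. The ratio of *CG6283* to *CG17191* increased by 1.33 on the log2 scale from early to late L2, from 1.26 ± 0.28 to 2.59 ± 0.22, without overlap (exact permutation p = 0.00794, adjusted p = 0.0265). It changed by 0.03 from late L2 to early L3 (exact permutation p = 0.857).

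The next pair showed a step in both intervals. The log2 ratio of *CG6277* to *CG6283* went from -5.58 ± 0.27 to -3.89 ± 0.51 and then to -2.18 ± 0.32. These increases of 1.69 and 1.71 were each without overlap (exact permutation p = 0.00794, adjusted p = 0.0265, in both). *CG6271* relative to *CG6277* was 1.06 ± 0.80, 0.42 ± 0.73 and 1.37 ± 0.40, and neither change passed after adjustment (exact permutation test, adjusted p = 0.308 and 0.0529). At the other end, *CG6295* relative to *CG6296* changed by -0.06 within L2 and by 0.42 into early L3 (exact permutation test, adjusted p = 0.582 and 0.0397). *CG17191* relative to *CG6295* changed by 0.29 within L2 (exact permutation test, adjusted p = 0.0476) and by 0.12 into early L3. With 5 libraries against 5, the smallest exact p that the 252 arrangements allow is 0.00794, 2-sided.

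The genes that flank or overlap the array were at low levels. *RYa-R*, a neuropeptide receptor gene whose annotated span on the opposite strand covers the whole array, had 0 to 0.765 CPM, and its log2 fold change into early L3 was 0.57 (limma adjusted p = 0.0263). *CG31076* had 1.58 to 3.83 CPM over all libraries, with log2 fold changes of 0.48 and 0.30 in the 2 steps, both below the minimum. *TwdlT*, of the Tweedle family of cuticle proteins, had at most 1.78 CPM and fell by 1.52 on the log2 scale into early L3 (limma adjusted p = 7.68e-05). The roo element inside the array was listed at no more than 0.362 CPM and *CG31077* at no more than 0.166 CPM. *TwdlC*, *Nep5* and *CG34292* are not among the entries of the deposited expression table, so no levels can be given for them.

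The second question was how the cluster's reads were divided among its members. Together the 7 genes took 0.457 ± 0.0376% of all reads in early L2, 0.593 ± 0.111% in late L2 and 1.14 ± 0.112% by early L3. By library, the share was 0.415% to 0.512% in early L2, 0.519% to 0.788% in late L2 and 0.981% to 1.30% by early L3. No stage overlapped another (exact permutation p = 0.00794 for each pair of stages). The highest late L2 value was again that of replicate 4, and the other late L2 libraries lay between 0.519% and 0.566%. In summed CPM, the cluster had 4565 ± 376, 5934 ± 1105 and 11410 ± 1122.

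Of the 1369 CPM that the sum gained from early to late L2, *CG6283* accounted for 73.3%, *CG6271* for 13.2% and *CG6277* for 7.65%. Without late L2 replicate 4 the gain was 882 CPM, *CG6283* accounted for 92.8% of it, and *CG6296* and *CG6295* had lower means than in early L2. The gain of 5481 CPM into early L3 had larger parts from other members. *CG6271* accounted for 26.7% of it, *CG6283* for 25.2%, *CG6295* for 19.7%, *CG6296* for 14.6%, *CG6277* for 9.7% and *CG17191* for 4.09%. These are shares of differences between means and were not tested.

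**Figure D3:**
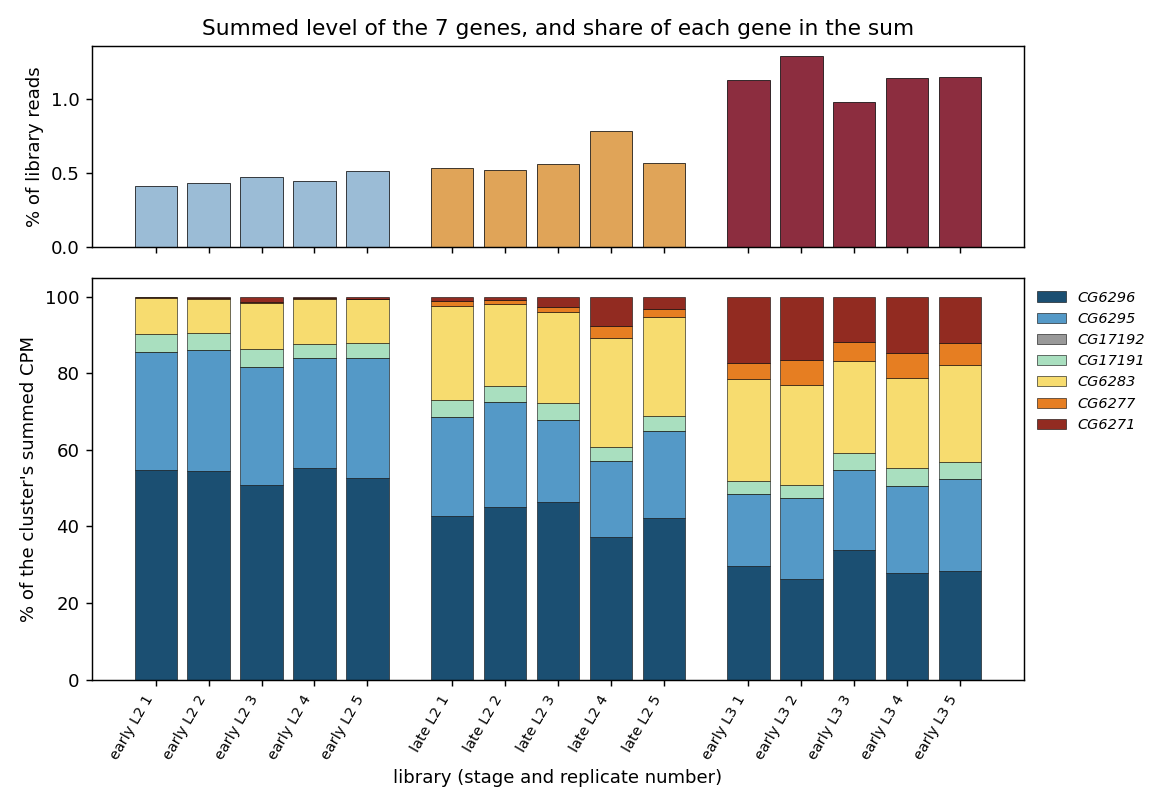
Upper panel, percent of all reads of a library that the 7 lipase genes took together, coloured by stage. Lower panel, percent of the cluster's summed CPM taken by each gene in the same 15 libraries. The share of *CG6296* shrinks from a mean of 53.6% in early L2 to 29.2% in early L3, and that of *CG6271* grows from 0.569% to 14.5%.

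*CG6296* held 53.6 ± 1.88% of the cluster's CPM in early L2, 42.7 ± 3.49% in late L2 and 29.2 ± 2.89% by early L3. Its share was lower in every later library than in any earlier one, although its CPM did not fall (exact permutation p = 0.00794, adjusted p = 0.0159, for both steps). The share of *CG6295* was 30.6 ± 1.19%, 23.5 ± 3.21% and 21.5 ± 2.01%. It was lower in late than in early L2 (exact permutation test, adjusted p = 0.0159) and did not differ detectably in the later step (adjusted p = 0.378 in the exact permutation test). *CG17191* held 4.40%, 4.10% and 4.10% on average, with overlapping ranges in both steps.

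*CG6283* held 10.6 ± 1.39% of the cluster's CPM in early L2, 24.8 ± 2.54% in late L2 and 25.1 ± 1.27% by early L3. The first step was without overlap (exact permutation test, adjusted p = 0.0159) and the second had a p of 0.81 in the exact permutation test. *CG6277* took 0.224 ± 0.0522%, 1.81 ± 0.888% and 5.62 ± 1.03%, with no overlap between stages (exact permutation test, adjusted p = 0.0159 in both steps). *CG6271* took 0.569 ± 0.470%, 3.09 ± 2.77% and 14.5 ± 2.56%. Its mean share was 0.365% in early L2 without replicate 3 and 1.94% in late L2 without replicate 4. Its larger share in late than in early L2 did not pass after adjustment over the 14 share tests (exact permutation p = 0.0317, adjusted p = 0.0556). The later step did pass (exact permutation test, adjusted p = 0.0159).

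The levels of the members were put in order per kilobase of exon, since *CG6296* is about as long as a pair of the others. On that scale the order in early L2 was *CG6295* (1283 CPM per kb), *CG6296* (1148), *CG6283* (449), *CG17191* (184), *CG6271* (24.8), *CG6277* (9.45) and *CG17192* (0.118). The ranges of *CG6295* and *CG6296* overlapped, as did those of *CG6271* and *CG6277*, but each pair had the same order in all 5 libraries. In late L2, *CG6283* (1376 CPM per kb), *CG6295* (1260) and *CG6296* (1178) overlapped, and so did *CG17191* (221.5), *CG6271* (193) and *CG6277* (106). In early L3 the order was *CG6283* (2653 CPM per kb), *CG6295* (2249), *CG6271* (1556), *CG6296* (1555), *CG6277* (596), *CG17191* (427) and *CG17192* (0.249). The ranges of *CG6283*, *CG6295*, *CG6271* and *CG6296* each overlapped the next there, as did those of *CG6277* and *CG17191*. *CG6271* was higher than *CG6296* in 3 of 5 libraries. *CG6271* was therefore near the bottom of the order in early L2 and level with *CG6296* in early L3.

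The third question was whether the members deviated together between replicates of 1 stage. Each gene's stage mean on the log2(CPM + 0.5) scale was removed, and the deviations were correlated over the 15 libraries for 21 pairs. All 15 pairs without *CG17192* were positive, with Pearson's r between 0.30 and 0.87, while the 6 pairs with *CG17192* ranged from -0.23 to 0.14. How often pairs of other genes were positive was not determined, so this count cannot be read as particular to the members. After adjustment over the 21 pairs, 4 passed, with p-values from 100000 permutations within stages. *CG6283* and *CG6271* had r = 0.87 and Spearman's rho = 0.84 (permutation p = 1e-05, the smallest these permutations can give, adjusted p = 0.00021). The rho had a permutation p of 0.00017 and an adjusted p of 0.0036.

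The other pairs at the *CG6271* end were close behind. *CG6277* and *CG6271* had r = 0.87 (permutation p = 0.00024, adjusted p = 0.0025) and rho = 0.80 (permutation p = 0.0033, adjusted p = 0.024). *CG6283* and *CG6277* had r = 0.83 (permutation p = 0.0014, adjusted p = 0.0097) and rho = 0.73 (permutation p = 0.0045, adjusted p = 0.024). *CG6296* and *CG6283* had r = 0.78 (permutation p = 0.0044, adjusted p = 0.023) and rho = 0.73 (permutation p = 0.0039, adjusted p = 0.024). For each of the 4 pairs, late L2 replicate 4 was the library whose removal lowered r the most, to 0.80, 0.79, 0.71 and 0.63 in the order given. The 15 libraries share the scaling to a common total and the 3 stages.

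When the 2 libraries farthest from the median of the first gene were left out, only *CG6283* with *CG6271* passed over the 21 pairs (r = 0.74, permutation p = 0.0013, adjusted p = 0.027). *CG6277* with *CG6271* had r = 0.71 (permutation adjusted p = 0.081), *CG6283* with *CG6277* r = 0.62 and *CG6296* with *CG6283* r = 0.52 (permutation adjusted p = 0.17 for both). For these last 3 pairs, the libraries left out were late L2 replicates 4 and 2 for the first 2 and late L2 replicate 4 and early L2 replicate 5 for the last. Leaving out the farthest libraries narrows the range of the first gene and by itself tends to lower r. The lower values therefore cannot tell how far these relations depended on those libraries. *CG6296* and *CG6295*, neighbours 429 bp apart, had r = 0.30 (permutation adjusted p = 0.36), and -0.22 without the 2 farthest libraries.

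**Figure D4:**
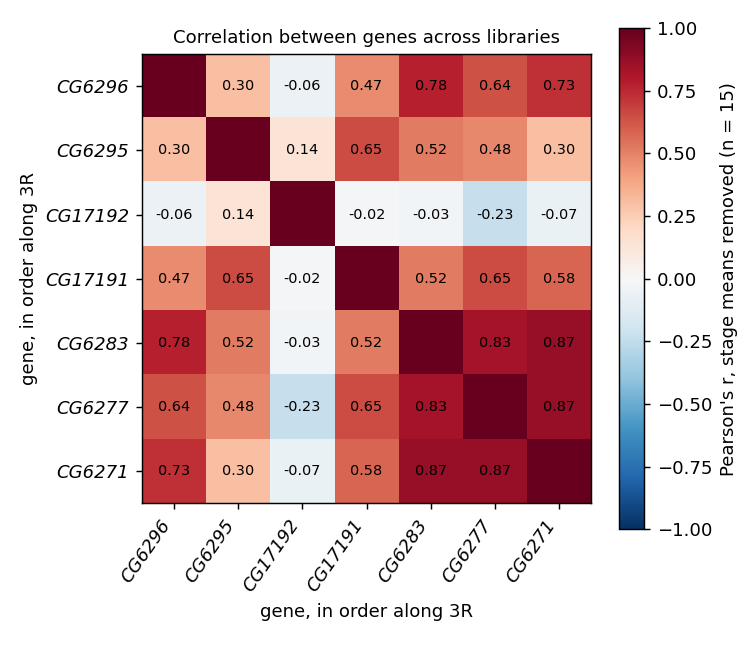
Pearson's r between each pair of lipase genes over the 15 libraries after removal of the stage means, with genes in chromosomal order on both axes and the value printed in each cell. The block of *CG6283*, *CG6277* and *CG6271* holds r of 0.83 to 0.87, and the row of *CG17192* stays between -0.23 and 0.14.

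**Figure D5:**
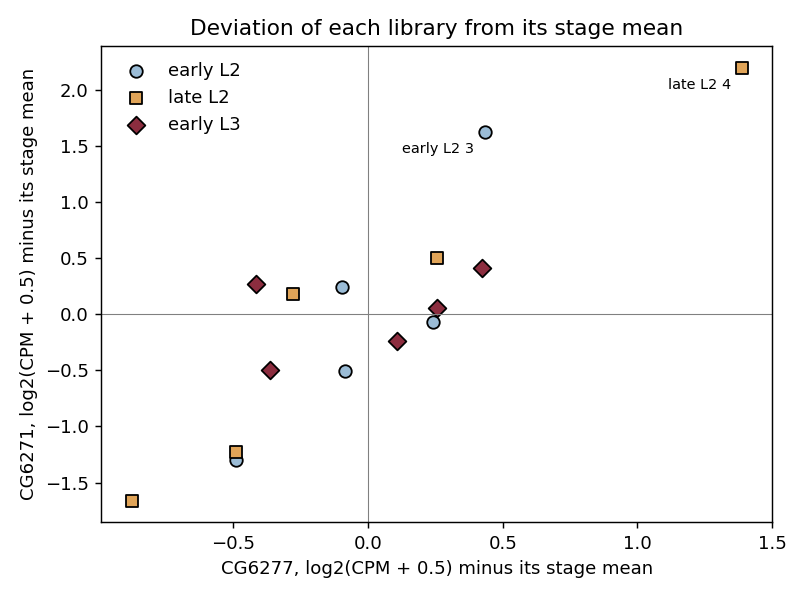
Deviation of *CG6271* from its stage mean against that of *CG6277*, both on the log2(CPM + 0.5) scale, with 1 point per library and stages shown by colour and shape. Late L2 replicate 4 and early L2 replicate 3 are labelled. Over all libraries r is 0.87, and late L2 replicate 4 is at the upper right. In early L2, *CG6277* spans -0.489 to 0.434 and *CG6271* spans -1.295 to 1.63. In early L3, *CG6277* spans -0.417 to 0.422 and *CG6271* only -0.494 to 0.409. Whether the slope differs between stages was not tested.

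Outside the array, the transcripts most like each member across the 15 libraries were found by Pearson's r of log2(CPM + 0.5), with stage differences included, as a description. For *CG6283* they were *CG8093*, an acid lipase gene (r = 0.99), *ninaD*, a scavenger receptor involved in carotenoid uptake (0.988), and *CG7582* (0.987). For *CG6277* they were the cytochrome P450 gene *Cyp316a1* (r = 0.995), *ninaD* (0.993) and *fabp*, a fatty acid binding protein (0.992). For *CG6271* they were *alpha-Est5*, a carboxylesterase (r = 0.988), *Gba1a*, a glucocerebrosidase (0.988), and *Snx1*, a sorting nexin (0.98). For *CG17191* they were *CG30082* (r = 0.985), *CG3625* (0.982) and *CG32054* (0.978), and for *CG6295* *Mnt*, a Myc antagonist (0.954), *Cyp312a1* (0.95) and *hiw*, a ubiquitin ligase (0.949). *ninaD* was named for both *CG6283* and *CG6277*, and it went from 1.92 to 88.3 and 946 CPM. On the same scale, the highest r with another member was 0.988 between *CG6283* and *CG6277*. It was 0.969 for *CG6271* (with *CG6277*) and 0.937 between *CG17191* and *CG6295*. For each of these genes this was below the highest r outside the array, which was picked from all tested entries. A close course across the libraries was therefore not particular to neighbours in the array.

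The array was then set beside other genes of fat digestion. The study lists 11 digestive lipases, of which 7 are the members. The array held 79.1% of their summed CPM in early L2, 73.8% in late L2 and 71.1% by early L3, a lower share at each step (exact permutation p = 0.00794 for both). Of the 4 others, 3 rose and 1 fell within L2, and in the step into early L3 2 rose and 1 fell. *mag*, the secreted acid lipase Magro, had means of 102 ± 14.3, 280 ± 139.8 and 1937 ± 522 CPM, with log2 fold changes of 1.34 and 2.87 (limma adjusted p = 0.00148 and 5.43e-07). *CG8093* had 76.0 ± 16.2, 384 ± 146 and 938 ± 214 CPM, with log2 fold changes of 2.28 and 1.34 (limma adjusted p = 4.42e-06 and 9.93e-05). Both were called in both steps, as were *CG6283*, *CG6277* and *CG6271*. *CG15533* rose within L2 (log2 fold change 0.57, limma adjusted p = 0.000271) and was at 0.31 in the later step, below the minimum.

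Genes of the neutral lipase family elsewhere in the genome were counted in the same way, and the array was not tested against them. The list includes the yolk protein genes *Yp1*, *Yp2* and *Yp3*. Of 26 listed, 10 were tested, and 0 rose and 1 fell within L2, while 2 rose and 1 fell into early L3. Their summed CPM was 179 to 215 in early L2, 158 to 169 in late L2 and 197 to 221 by early L3, against 4150 to 5120, 5190 to 7880 and 9810 to 13000 for the array. *CG17292*, with the highest mean CPM of them, had 96.3, 88.6 and 109 CPM, with log2 fold changes of -0.11 and 0.30. *CG10116* fell within L2 (log2 fold change -0.61, limma adjusted p = 6.15e-05). As shares, 0.0% and 20.0% of the 10 rose in the 2 steps, against 3.38% and 6.45% of all entries, and 10.0% fell in each, against 6.51% and 18.7%. The median log2 fold change of these 10 genes was -0.22 and then 0.08, against 0.26 and 0.95 for the 7 members and 0.01 and -0.11 for all tested entries.

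Acid lipases and the steps after digestion are given for the same comparisons. Of 11 tested acid lipase genes, *mag* and *CG8093* included, 6 rose and 0 fell within L2, and in the step into early L3 6 rose and 3 fell. The acid lipases that rose were 54.5% of those tested in each step, against 3.38% and 6.45% of all entries. *CG2772*, another acid lipase gene, rose into early L3 (log2 fold change 0.59, limma adjusted p = 0.000132). Of 15 genes of fatty acid uptake and re-esterification, 7 rose and 1 fell within L2, and in the step into early L3 9 rose and 1 fell. *fabp* went from 666 to 1366 and 2772 CPM, with a log2 fold change of 1.02 in both steps (limma adjusted p = 3.74e-06 and 7.04e-07). The uptake and re-esterification genes that rose were 46.7% and 60.0% of the list. *Fatp1*, a fatty acid transporter, went from 216.5 to 567 and 836 CPM and was called in both steps. Of 5 genes of lipoprotein particles and their receptors, 1 (20.0%) rose within L2 and 2 (40.0%) rose into early L3, against 3.38% and 6.45% of all entries. Those called into early L3 were the receptor genes *LpR1* (log2 fold change 0.50) and *LpR2* (0.63). From early L2 to early L3, 0 of the 5 rose.

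The array was also set beside digestive enzymes for other nutrients. Of 37 tested digestive proteases, 2 rose and 3 fell within L2, and in the step into early L3 4 rose and 5 fell. Of 14 tested carbohydrases, 5 (35.7%) rose and 2 (14.3%) fell within L2, and in the step into early L3 7 rose and 1 fell. The proteases that rose were 5.41% and 10.8% of those tested, against 3.38% and 6.45% of all entries, and those that fell were 8.11% and 13.5%, against 6.51% and 18.7%. The array's part of the summed CPM of the study's digestive enzymes was 4.82% in early L2, 6.64% in late L2 and 9.89% by early L3 (exact permutation p = 0.00794 for both steps). The lists of digestive enzymes come from the study that made these libraries, and their direction here is not independent evidence.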

How the data were processed

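Poly(A) RNA of 15 midgut pools was sequenced from stranded libraries. According to the submitters' processing notes, build BDGP6 was used with STAR 2.7.10a, Salmon 1.5.2, Trim Galore 0.6.7 and DESeq2, and with Picard, FastQC and MultiQC 1.11 (roles not given). How reads that match several similar genes were counted is not given in the sources used here, so the split of reads between members is uncertain. The authors deposited CPM values, and a table of their own log2 fold changes and p-values that was not used. All 166854 values above 0 were whole reads within 0.001 once divided by the value of 1 read, and edgeR 4.0.16 and DESeq2 1.42.0 were run on these reads as alternatives.

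The 9787 entries that reached 0.5 CPM in 1 library or more were fitted with limma 3.58.1 (R 4.3.3, intensity trend, 15 libraries, no block), with a pseudocount of 0.5. The fit was tested on data simulated with the same dispersion for every gene. In the real data the SD was 111% of the mean for *CG6271* in late L2 and 2.57% for *CG6296* in early L3. The simulation therefore does not show how the fit behaves for the most variable members. Shares and ratios were compared with 2-sided exact permutation tests. The alternatives were pseudocounts of 0.1 and 4, other filters and scalings, no minimum fold, a replicate block, and libraries left out in turn. Correlations without the 2 farthest libraries and the ratios of neighbours were added after seeing the data. Same-numbered replicates of different stages had correlations of their deviations between -0.182 and 0.205, and 1 of 5 pairs exceeded 0.1 in each pair of stages. Replicates with different numbers ranged from -0.255 to 0.269, so no pairing by number was seen. How the numbers were assigned is not given in the sources used here.

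The members and lists were chosen with earlier results of these data known. All 7 members were named. For each member called into early L3, the 3 transcripts with the highest r were named, with the annotated neighbours and up to 3 genes per list with the highest mean CPM. From the marker lists, further genes were named after their values were seen. Promoter and protein sequences were not used here.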

Additional observations from a re-analysis of the deposited data

Results flagged for a closer look

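Dixon's test for a single high or low value was applied in 45 groups of 5 libraries (levels and shares of the members and of the cluster), where chance alone flags about 1 in 20 groups. *CG6271* was high in early L2 replicate 3, at 65.7 CPM, and in late L2 replicate 4, at 603 CPM. Its share of the cluster's CPM was high in early L2 replicate 3, at 1.39%. The cluster's share of all reads was high in late L2 replicate 4, at 0.788%. In that library the 4 fat body markers summed to 247 CPM, and in early L2 replicate 3 to 1.33 CPM, inside the early L2 range of 0.292 to 1.65. The parts of fat body RNA and of the age of these pools were not tested.

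The later and the earlier change differed for 2 members by the test of the difference in the limma fit. The later change was larger by 0.86 on the log2 scale for *CG6295* and by 0.69 for *CG17191*.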

How the results depend on the processing

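The number of members called higher was 3 within L2 under every alternative run. Into early L3, and between early L2 and early L3, it was 5, or 6 with *CG6296* added under median-ratio scaling, edgeR, DESeq2 or no minimum fold. The log2 fold change of *CG6296* was then 0.55, 0.53, 0.55 and 0.41 into early L3 and 0.59, 0.59, 0.59 and 0.44 between early L2 and early L3. Under quantile normalization that of *CG6296* into early L3 was 0.19 and was not called. Its difference between steps was called under median-ratio scaling (0.52), DESeq2 (0.50) and no minimum fold (0.37), which made 3 members instead of 2. No value changed sign among the fold changes and shares that had been called. *CG17192* had no value under the filter of 1 CPM in 5 libraries or without early L3 replicate 5. With the replicate number as a block, 3, 5, 5 and 2 members were called in the 4 comparisons, as without it, and the block changed no call.

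Leaving out any single early L2 library raised the exact permutation p of the share of *CG6271* within L2 from 0.0317 to between 0.0556 and 0.0794, with fewer libraries. The fold changes stayed within 2.07 to 3.04 and 3.21 to 4.18 for *CG6271* when single libraries were left out. The later change of *CG6271* relative to *CG6277*, 0.94 with all libraries, was between 0.75 and 1.03 in the 7 cases whose permutation p exceeded 0.05. That of *CG6295* relative to *CG6296* had a permutation p of 0.0571 when late L2 replicate 4 was left out together with early L3 replicate 1. Without these libraries r was 0.57 for *CG6296* with *CG6283*. The cause was not tested. Depth limited only *CG17192*, with at most 18 reads in a library.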
